A study of Homo sapiens with 12 samples.

Results

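The 34 genes described here encode the enzymes and regulators of cholesterol and fatty acid synthesis, with a few genes of sterol transport. They were chosen by symbol from the 46863 genes of a count table. The table comes from SU-DHL-4, an established line of diffuse large B-cell lymphoma of the germinal-centre type that the labels describe as wild type and as taken from a peritoneal effusion. All 34 symbols were found, and all 34 were among the 16835 genes that passed the filter on low counts. The cells were exposed for 72 h to DMSO as the control, to 1 µM entospletinib (Ento), an inhibitor of the kinase SYK, to 0.01 µM AZD5153 (AZD), a bivalent inhibitor of the BET proteins, or to 1 µM Ento with 0.01 µM AZD (Ento+AZD). Each of the 4 groups had 3 libraries of polyadenylated RNA, numbered 1 to 3 and described as biological replicates. All of them come from this 1 cell line, so the values describe SU-DHL-4 and not the lymphoma type. The comparisons ask what each agent does alone, what the pair does, and whether the pair differs from its parts.

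Cells make cholesterol from acetyl-CoA through the mevalonate pathway and then a series of sterol-modifying enzymes, and they make fatty acids from the same precursor through acetyl-CoA carboxylase and fatty acid synthase. Both routes are controlled by the transcription factors SREBF1 and SREBF2, which are held in the endoplasmic reticulum by INSIG1 and INSIG2 when sterols are plentiful and escorted to the Golgi by SCAP when they are scarce. New fatty acids are then elongated and desaturated, and surplus sterol leaves the cell through the transporters ABCA1 and ABCG1. Dividing cells draw on both routes for new membrane.

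Total counts per library lay between 18121993 and 24675830, and the 34 genes took 0.445 to 0.600% of them. All 6 B cell markers looked at were present in every library (summed level 3764 to 7683 CPM, the counts scaled to a common library size). CD3D, CD2, FCGR3A, KRT8, COL1A2 and VWF, which mark T cells, myeloid cells, epithelium, fibroblasts and endothelium, had 0 counts in all 12 libraries. CD3E was at 9 to 51 counts and PECAM1 at 11.5 to 87.3 CPM. CD14 had 0 to 3 counts, CSF1R 2 to 7, EPCAM 0 to 2 and COL1A1 0 to 2. Among further lipid genes looked at, FNTB, ME1, MID1IP1 and CH25H also had 0 counts in all 12 libraries. Whether a 0 reflects the cells or the counting was not tested. The summed level of 8 proliferation genes (MKI67, TOP2A, CDK1, CCNB1, MCM2, PCNA, BUB1 and AURKB) was 2202, 2060 and 3168 CPM in DMSO replicates 1, 2 and 3, 2520, 1053 and 2783 CPM with Ento, 1988, 905 and 1847 CPM with AZD, and 1193, 449 and 1528 CPM with Ento+AZD. Replicate 2 had the lowest sum of each group, though not the lowest value of every gene (MKI67 and MCM2 were lowest in DMSO replicate 1). Of the 8, edgeR called 0 with Ento (unadjusted p under 0.05 for 2, DESeq2 called 1), where 8.32% of all genes were called. With AZD 8 fell and with Ento+AZD 8 fell, where 12.7% and 20.8% of all genes fell. DESeq2 called 5 with AZD and 8 with Ento+AZD, and without the replicate block edgeR called 0 of the 8 in each of these comparisons.

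Throughout, values of a gene are given as CPM scaled by TMM, in the order of replicates 1, 2 and 3. Changes are log2 fold changes ± SE from edgeR's quasi-likelihood test over all genes with the replicate number as a block, and a gene was called where its Benjamini-Hochberg adjusted p was under 0.05.

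With DMSO, the level per kilobase of the longest annotated transcript spanned a wide range. FDFT1, which joins farnesyl units into squalene at the entry to the sterol branch, was highest at 282 to 336 CPM per kb. SCD, the desaturase that makes monounsaturated fatty acids, followed at 144 to 175 CPM per kb, and its range overlapped that of INSIG1 at 130 to 176 CPM per kb. ACLY, which cuts citrate into acetyl-CoA, lay at 73.2 to 89.2 CPM per kb and was not separated from SREBF2 at 73.8 to 82.0 CPM per kb. At the low end, ACSS2, which makes acetyl-CoA from acetate, was at 0.595 to 1.32 CPM per kb. ELOVL6, the member that changed most, was also among the low ones with a mean of 5.72 CPM per kb. The elongase extends saturated and monounsaturated chains of the kind that fatty acid synthase delivers.

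**Figure D1:**
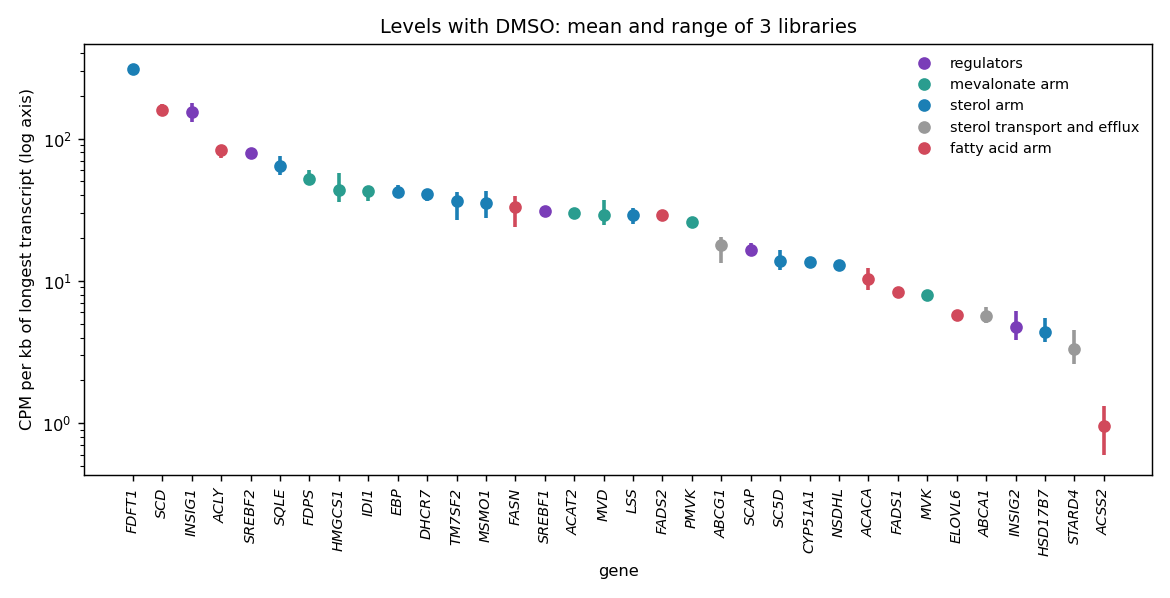
Level of each of the 34 genes with DMSO, as CPM per kb of the longest transcript on a log axis, with points at the mean of 3 libraries, lines from the lowest to the highest library, and colours for the role. FDFT1 is highest at 282 to 336 CPM per kb and ACSS2 lowest at 0.595 to 1.32 CPM per kb, and many neighbours have overlapping ranges.

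Promoter sequence was available for 29 of the 34 genes in the RefSeq table of GRCh38.p14. In the 250 bases before the start, on either strand, the NF-Y box CCAAT was found in 20 of the 29 genes (69.0%), against 37.0% of all 27305 genes in the table and 41.3% of the 10473 that were also tested for expression. The GC box GGGCGG was found in 28 of 29 (96.6%), against 46.2% of all genes and 71.3% of those tested. The E-box CACGTG was found in 4 of 29 (13.8%, ABCA1, INSIG1, SC5D and SCAP), against 7.73% and 11.2%. The sterol regulatory element, searched as TCACNCCAC, was found in SREBF2 alone (3.45%, against 1.09% and 1.15%). Only this exact form was searched, so other forms of the element or sites outside the 250 bases would be missed. The genes without a promoter entry were ACAT2, FDFT1, SQLE, ABCG1 and FASN. All motif counts are matches of letters and not measured binding. SREBF2 is shown because it holds the sterol element, MSMO1 because it holds several NF-Y boxes, and ELOVL6 because it changed most, with 150 bases of each before its RefSeq start, 5′ to 3′ on the strand of the gene and whole motifs in capitals. The stretches are chr22:41832955-41833104 (plus strand), chr4:165327517-165327666 (plus strand) and chr4:110198654-110198803 (minus strand), each outside the annotated untranslated regions. For ELOVL6 the stretch runs from −188 to −39 of the RefSeq start, which lies inside the longer GENCODE span of the gene, so these bases are within that span but in no exon of it. MSMO1 and ELOVL6 were picked after their values were seen.
SREBF2: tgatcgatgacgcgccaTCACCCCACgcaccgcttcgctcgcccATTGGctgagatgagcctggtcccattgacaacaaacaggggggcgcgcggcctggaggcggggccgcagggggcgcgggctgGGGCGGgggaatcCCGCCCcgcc
MSMO1: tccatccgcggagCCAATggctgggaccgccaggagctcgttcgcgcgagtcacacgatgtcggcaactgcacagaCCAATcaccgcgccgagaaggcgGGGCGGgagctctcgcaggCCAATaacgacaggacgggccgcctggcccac
ELOVL6: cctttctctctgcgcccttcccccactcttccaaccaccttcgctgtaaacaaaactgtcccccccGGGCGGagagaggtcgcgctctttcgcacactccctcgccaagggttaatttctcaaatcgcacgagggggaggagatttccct
In SREBF2 the capitals mark the sterol element from −133 to −125, an NF-Y box in reverse and 2 GC boxes, and the antisense gene SREBF2-AS1 has an exon in the same stretch. MSMO1 holds 3 NF-Y boxes and 1 GC box here, and ELOVL6 holds 1 GC box and no NF-Y box, E-box or sterol element.

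Against DMSO, ELOVL6 was the only gene of the 34 called with a change over 2-fold (with Ento+AZD, where 8.32% of all genes were), and the others moved in both directions by less. With Ento, 3 of 34 genes were called (8.82%, 1 higher and 2 lower), and 8.32% of all genes tested were called in that comparison (4.66% higher and 3.66% lower). With AZD, 9 were called (26.5%, 4 higher and 5 lower), against 22.2% of all genes (9.57% higher and 12.7% lower). With Ento+AZD, 17 were called (50%, 6 higher and 11 lower), against 40.0% of all genes (19.2% higher and 20.8% lower). The shares called with Ento and AZD were near those of all genes. With Ento+AZD lower calls outnumbered higher calls among the 34 genes (11 and 6) and among all genes (3504 and 3232 of 16835). With 17 calls, several of them lost when 1 library was left out, the split among the 34 genes is a description. Below 0 lay 28 of the 34 genes with Ento, 17 with AZD and 23 with Ento+AZD. An unadjusted p under 0.05 was found for 14, 13 and 18 of them, beside 24.3%, 36.1% and 48.4% of all genes. The median absolute change of the 34 genes was 0.18 with Ento, 0.17 with AZD and 0.27 with Ento+AZD, and that of all genes was 0.17, 0.22 and 0.29. The signed median was −0.16, −0.01 and −0.13 for the 34 genes and 0.01 in each case for all genes. The 3 comparisons share the DMSO libraries. In bulk RNA, fewer cells of a kind and less RNA per cell cannot be told apart.

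Leaving out 1 library gave 0 to 6 called members with Ento, 4 to 9 with AZD and 10 to 19 with Ento+AZD. The AZD count was 4 without AZD replicates 2 or 3, and the Ento+AZD count was 10 without Ento+AZD replicates 1 or 3. Without the replicate block, 0, 1 (FADS1) and 7 members (ACAT2, TM7SF2, EBP, SC5D, FADS1, FADS2 and ELOVL6) were called. No called change of a member turned its direction in any of the alternatives run. The Ento count was 0 without Ento replicate 2, and 1 without DMSO replicates 1 or 3, Ento replicates 1 or 3, AZD replicate 2 or Ento+AZD replicates 1 or 3, and 5 without DMSO replicate 2, and 6 without Ento+AZD replicate 2.

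**Figure D2:**
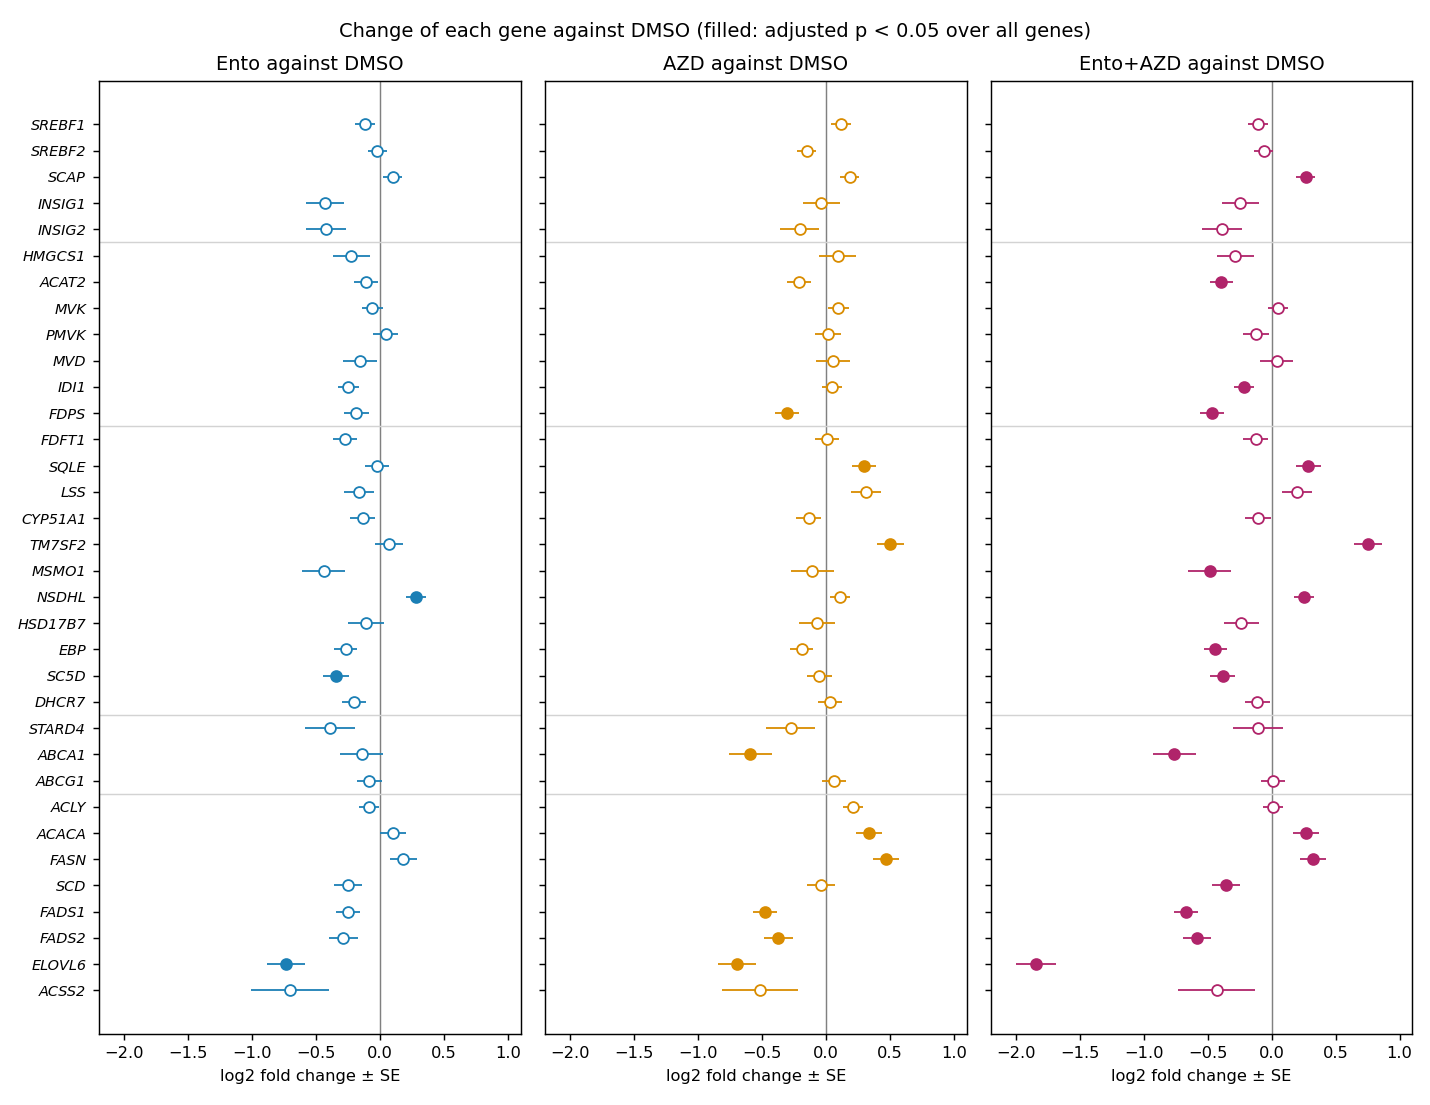
Log2 fold change of each of the 34 genes against DMSO for Ento, AZD and Ento+AZD, with bars of 1 SE and filled points for genes called at an adjusted p under 0.05, ordered by role from the regulators at the top to the fatty acid genes at the bottom (grey lines divide the roles). ELOVL6 stands apart with Ento+AZD at −1.85, TM7SF2 is the highest at 0.75, and most other points lie near 0.

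**Figure D3:**
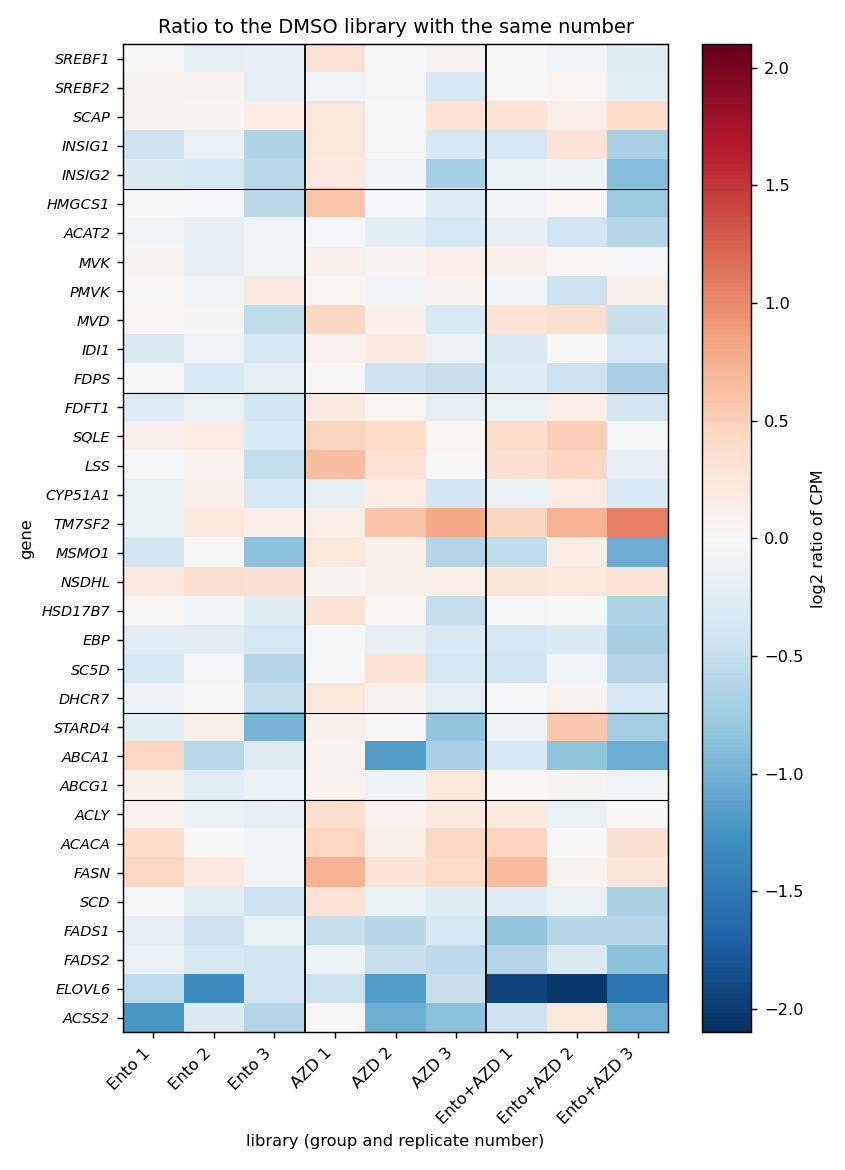
Log2 ratio of the CPM of each gene in each exposed library to the DMSO library of the same number, with red for higher and blue for lower, columns by group and replicate, and black lines between groups and roles. In the columns numbered 3 many sterol genes are lower, and the ELOVL6 row is below 0 in all 9 columns.

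Among the regulators, SCAP was the only gene called in the fit of all 12 libraries. SREBF1 was at 147, 151 and 159 CPM with DMSO, at 147, 132 and 141 CPM with Ento, at 181, 147 and 167 CPM with AZD and at 145, 145 and 133 CPM with Ento+AZD. SREBF2 was at 421, 456 and 467 CPM with DMSO, at 444, 478 and 405 CPM with Ento, at 401, 443 and 371 CPM with AZD and at 422, 470.3 and 399 CPM with Ento+AZD. The exposed and DMSO libraries of SREBF2 overlapped in every comparison, while all 3 SREBF1 values with Ento+AZD lay just under the DMSO values. Neither factor was called, and with Ento+AZD the changes were −0.11 ± 0.079 (95% interval −0.26 to 0.05) for SREBF1 and −0.06 ± 0.075 (−0.21 to 0.08) for SREBF2. INSIG1 was at 446, 378 and 513 CPM with DMSO, at 326, 339 and 327 CPM with Ento, at 526, 374 and 408 CPM with AZD and at 349, 460.4 and 319 CPM with Ento+AZD. The 3 Ento libraries lay below the 3 DMSO libraries, but the change of −0.43 ± 0.15 was not called (adjusted p = 0.0836). Without the 4 libraries numbered 2, INSIG1 was called lower with Ento (−0.57 ± 0.12, adjusted p = 0.0261). In that fit it was also called lower with Ento+AZD (−0.54 ± 0.12, adjusted p = 0.0055) and was not called with AZD (−0.05 ± 0.12). INSIG2 ranged from 10.7 to 22.0 CPM over the 12 libraries and was not called in any comparison of all 12. Without the libraries numbered 2 it was called lower with Ento+AZD (−0.55 ± 0.19, adjusted p = 0.049). SCAP, the escort of the SREBP proteins, rose with Ento+AZD (0.27 ± 0.075, adjusted p = 0.0118), a call lost without Ento+AZD replicate 3 (adjusted p up to 0.0708). In counts, edgeR called 0 of the 5 regulators with Ento (2 at an unadjusted p under 0.05), 0 with AZD (1) and 1 with Ento+AZD, and DESeq2 called 0, 0 and 1. Of all genes edgeR called 8.32%, 22.2% and 40.0%, so the share of regulators was below that of all genes in each comparison.

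In the mevalonate arm, 3 of 7 genes were called with Ento+AZD, a share near the 40.0% of all genes called, and all 3 were lower (beside 20.8% of all genes). They were FDPS, which makes farnesyl diphosphate (−0.47 ± 0.096, adjusted p = 0.00168), ACAT2, which joins acetyl-CoA units at the start of the route (−0.39 ± 0.093, adjusted p = 0.0041), and IDI1, which isomerises the isoprenoid unit (−0.21 ± 0.079, adjusted p = 0.0422). The calls of FDPS and ACAT2 were kept in all 12 fits that left out 1 library, and that of IDI1 was kept only in the fits without DMSO replicate 2, AZD replicate 1 or Ento+AZD replicate 2 (adjusted p up to 0.182 in the others). With AZD only FDPS was called (−0.31 ± 0.096, adjusted p = 0.0345), a call lost without DMSO replicates 2 or 3, Ento replicate 1, AZD replicates 2 or 3 or Ento+AZD replicate 1 (adjusted p up to 0.188). With Ento edgeR and DESeq2 called 0 of the 7, and 1 was at an unadjusted p under 0.05. Of all genes 22.2% were called with AZD and 8.32% with Ento. Exons of ACAT2 overlap those of TCP1, SOD2 and SOD2-OT1 on the opposite strand, and TCP1, a subunit of a chaperonin, also fell with Ento+AZD (−0.28 ± 0.086, adjusted p = 0.0182). Exons of FDPS and IDI1 overlap the antisense genes RUSC1-AS1 and IDI2-AS1, which were not called with Ento+AZD (adjusted p = 0.312 and 0.898). Whether the counting used the strand is not stated, so reads in these overlaps cannot be told apart.

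HMGCS1 was at 202, 192 and 304 CPM with DMSO, at 199.6, 187 and 204 CPM with Ento, at 302, 189.6 and 252 CPM with AZD and at 191, 197 and 177 CPM with Ento+AZD. This synthase makes the precursor that the reductase step turns into mevalonate. DMSO replicate 3 stood above the other DMSO libraries, and the exposed libraries reached from below to inside the DMSO range. The changes of −0.23 ± 0.15, 0.09 ± 0.15 and −0.29 ± 0.15 with Ento, AZD and Ento+AZD were not called. Without the 4 libraries numbered 2, HMGCS1 was called lower with Ento+AZD (−0.47 ± 0.16, adjusted p = 0.0388) and was not called with Ento or AZD. IDI1 was at 157, 123 and 155 CPM with DMSO, at 127, 116 and 122 CPM with Ento, at 167, 140.0 and 142 CPM with AZD and at 129, 123 and 121 CPM with Ento+AZD. The Ento and Ento+AZD values were 116 to 129 CPM and all lay below the AZD values. DMSO replicate 3 was the highest DMSO library for 20 of the 34 genes, while Ento+AZD replicate 3 was the lowest of its group for 21. MVK and MVD, a kinase and a decarboxylase of the route, and PMVK, the kinase between them, were called in no comparison, with changes against DMSO from −0.16 to 0.10.

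In the sterol arm, 3 of 11 genes rose and 3 fell with Ento+AZD, beside 19.2% and 20.8% of all genes. With AZD 2 rose and 0 fell (9.57% and 12.7% of all genes), and with Ento 1 rose and 1 fell (4.66% and 3.66%). TM7SF2, a sterol reductase of the endoplasmic reticulum and nuclear envelope, gave the largest increase of the 34 genes. TM7SF2 was at 83.9, 87.7 and 55.7 CPM with DMSO, at 75.8, 103 and 61.2 CPM with Ento, at 92.6, 132 and 96.4 CPM with AZD and at 116, 146 and 116 CPM with Ento+AZD. All AZD and Ento+AZD libraries lay above all DMSO libraries, while the Ento and DMSO libraries overlapped. Replicate 2 was the highest library in all 4 groups. TM7SF2 rose 1.42-fold with AZD (0.50 ± 0.11, adjusted p = 0.0059) and 1.68-fold with Ento+AZD (0.75 ± 0.11, adjusted p = 0.000126), and both calls were kept in all 12 fits that left out 1 library. Exons of TM7SF2 (chr11:65111845-65116384, GRCh38) overlap those of VPS51 on the same strand. VPS51 changed by −0.06 ± 0.081 with AZD, without a call (adjusted p = 0.658), and fell by 0.29 ± 0.081 with Ento+AZD (adjusted p = 0.0103).

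SQLE, the squalene epoxidase and a rate-limiting step of the branch, also rose. SQLE was at 163, 186 and 223 CPM with DMSO, at 176, 209 and 178 CPM with Ento, at 227, 247 and 229 CPM with AZD and at 213, 265 and 220.2 CPM with Ento+AZD. The AZD libraries lay above the DMSO libraries by a small gap and those with Ento+AZD overlapped them. The change was 0.30 ± 0.095 (adjusted p = 0.0368) with AZD and 0.29 ± 0.095 (adjusted p = 0.0271) with Ento+AZD. The AZD call was kept only in the fits without DMSO replicate 3, Ento replicates 2 or 3 or Ento+AZD replicates 2 or 3 (adjusted p up to 0.142 in the others), and the Ento+AZD call was lost without DMSO replicates 1 or 2 or Ento+AZD replicates 1 or 2 (adjusted p up to 0.143). LSS was at 123, 141 and 160.1 CPM with DMSO, at 119, 149.8 and 112 CPM with Ento, at 193, 174 and 160.4 CPM with AZD and at 157, 191 and 142 CPM with Ento+AZD. LSS, which closes the squalene chain into lanosterol, was not called against DMSO, and the AZD values lay above the Ento values in every library.

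NSDHL, an enzyme that helps to remove methyl groups from the sterol ring, rose with Ento and with Ento+AZD. NSDHL was at 23.7, 24.4 and 22.8 CPM with DMSO, at 27.2, 30.8 and 28.3 CPM with Ento, at 24.7, 26.6 and 25.1 CPM with AZD and at 28.3, 28.5 and 27.6 CPM with Ento+AZD. All libraries of these groups lay above all DMSO libraries, by 0.28 ± 0.078 (adjusted p = 0.039) with Ento and 0.25 ± 0.079 (adjusted p = 0.0197) with Ento+AZD. The Ento call was kept only in the fits without AZD replicate 1 or Ento+AZD replicate 2 (adjusted p up to 0.19 in the others), and DESeq2 did not make it (adjusted p = 0.0641). The Ento+AZD call was lost without DMSO replicate 2 or Ento+AZD replicates 1 or 3 (adjusted p up to 0.0836).

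SC5D, the oxidase that turns lathosterol into the next-to-last sterol of the route, went the other way. SC5D was at 90.5, 82.0 and 112 CPM with DMSO, at 70.0, 79.4 and 74.6 CPM with Ento, at 87.5, 99.7 and 87.3 CPM with AZD and at 68.0, 76.9 and 73.1 CPM with Ento+AZD. The Ento and Ento+AZD libraries lay below all DMSO libraries and the AZD libraries did not. SC5D fell with Ento (−0.35 ± 0.10, adjusted p = 0.0476), a call kept only in the fits without DMSO replicate 2, AZD replicate 3 or Ento+AZD replicate 2 (adjusted p up to 0.185 in the others), and with Ento+AZD (−0.39 ± 0.10, adjusted p = 0.00763), a call kept in all 12 fits that left out 1 library. EBP, a sterol isomerase, also fell with Ento+AZD (−0.44 ± 0.09, adjusted p = 0.00158), in all 12 fits that left out 1 library. Exons of EBP overlap a gene without a symbol on the same strand (ENSG00000286268). MSMO1, an oxidase of sterol methyl groups, fell with Ento+AZD (−0.49 ± 0.17, adjusted p = 0.0343), although Ento+AZD replicate 2 was above its DMSO partner. That call was lost without DMSO replicate 3 or Ento+AZD replicates 1 or 3 (adjusted p up to 0.27), and DESeq2 did not make it (adjusted p = 0.115). Without the 4 libraries numbered 2 the change of MSMO1 was −0.82 ± 0.15 (adjusted p = 0.00193). FDFT1, CYP51A1, HSD17B7 and DHCR7 were called in no comparison. Pseudogene symbols in the table held 2972 counts beside 10428 for CYP51A1 and 1513 beside 3265 for HSD17B7, so levels of these genes are uncertain. Exons of CYP51A1 also overlap AKAP9 on the opposite strand, which rose with Ento+AZD (0.43 ± 0.10, adjusted p = 0.00498). Reads in that overlap cannot be told apart. For FDPS the pseudogene symbols held 2245 counts beside 23493.

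Among the transport genes, ABCA1, which exports cholesterol to lipoprotein particles, fell with AZD and with Ento+AZD. ABCA1 was at 55.7, 53.0 and 68.0 CPM with DMSO, at 75.6, 35.5 and 56.9 CPM with Ento, at 58.4, 23.5 and 42.3 CPM with AZD and at 44.1, 29.4 and 33.0 CPM with Ento+AZD. Replicate 2 was the lowest library of each group, AZD replicate 1 was inside the DMSO range, and the Ento+AZD libraries lay below all DMSO libraries. The change was −0.59 ± 0.17 (adjusted p = 0.0236) with AZD and −0.76 ± 0.17 (adjusted p = 0.00296) with Ento+AZD, which is 1.7-fold lower. The AZD call was lost without DMSO replicates 2 or 3 or AZD replicates 2 or 3 (adjusted p up to 0.146), and without all 4 libraries numbered 2 it was −0.33 ± 0.16 (adjusted p = 0.169). The Ento+AZD call was kept in all 12 fits that left out 1 library, and −0.72 ± 0.16 (adjusted p = 0.00529) without the libraries numbered 2. ABCG1 was at 71.1, 67.3 and 46.6 CPM with DMSO, at 76.2, 57.6 and 42.1 CPM with Ento, at 75.1, 61.6 and 54.2 CPM with AZD and at 72.9, 69.9 and 44 CPM with Ento+AZD. The groups of this other exporter overlapped throughout and it was not called in any comparison, nor was STARD4, a carrier of sterol between membranes. Thus 1 of the 3 transport genes was called lower with AZD and 1 with Ento+AZD, beside 12.7% and 20.8% of all genes.

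In the fatty acid arm, 6 of 8 genes were called with Ento+AZD, 2 higher and 4 lower, beside 40.0% of all genes (19.2% higher and 20.8% lower), and 5 of 8 with AZD, 2 higher and 3 lower, beside 22.2% (9.57% higher and 12.7% lower). With so few genes these shares are a description of the list. FASN was at 204, 334 and 298 CPM with DMSO, at 274, 384 and 284 CPM with Ento, at 339, 403 and 399 CPM with AZD and at 319, 354 and 354 CPM with Ento+AZD. FASN, the fatty acid synthase, was above all DMSO libraries in all AZD libraries, and with Ento+AZD only replicate 1 (319 CPM) was inside the DMSO range. It rose 1.38-fold with AZD (0.47 ± 0.10, adjusted p = 0.00657), a call kept in all 12 fits that left out 1 library, and by 0.32 ± 0.10 (adjusted p = 0.0233) with Ento+AZD, a call lost without DMSO replicate 1 or Ento+AZD replicates 1 or 3 (adjusted p up to 0.135). ACACA was at 85.8, 123 and 102 CPM with DMSO, at 113, 123 and 95.3 CPM with Ento, at 118, 135 and 137 CPM with AZD and at 120.1, 123 and 127 CPM with Ento+AZD. ACACA, the carboxylase that makes malonyl-CoA for FASN, overlapped the DMSO range through DMSO replicate 2. It rose with AZD (0.34 ± 0.10, adjusted p = 0.0284), a call lost without DMSO replicates 1 or 3 or AZD replicates 2 or 3 (adjusted p up to 0.167), and with Ento+AZD (0.27 ± 0.10, adjusted p = 0.0475), a call kept only in the fits without DMSO replicate 2, Ento replicates 1 or 3, AZD replicate 3 or Ento+AZD replicate 2 (adjusted p up to 0.233 in the others). ACLY and ACSS2 were not called against DMSO.

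All 3 desaturases of the fatty acid arm (SCD, FADS1 and FADS2) were called lower with Ento+AZD, beside 20.8% of all genes. With AZD only FADS1 and FADS2 were, beside 12.7% of all genes. With Ento none of the 3 was, beside 3.66% (unadjusted p under 0.05 for all 3, adjusted p = 0.107 to 0.173, and 0.104 to 0.147 by DESeq2). The desaturases were not a list set in advance, and these counts are a description. The desaturase SCD5, from the further lipid genes looked at, was at 15.1, 13.7 and 10.9 CPM with DMSO. With Ento+AZD it was at 11.6, 15.1 and 11.8 CPM, which overlapped the DMSO range. SCD was at 757, 837 and 918 CPM with DMSO, at 734, 706 and 673 CPM with Ento, at 936, 747 and 769 CPM with AZD and at 630.3, 754 and 578 CPM with Ento+AZD. The Ento+AZD libraries lay below all DMSO libraries, by a few CPM for replicate 2, and SCD fell with Ento+AZD (−0.36 ± 0.11, adjusted p = 0.0178), a call lost without DMSO replicate 3 or Ento+AZD replicates 1 or 3 (adjusted p up to 0.113). FADS1 was at 38.2, 35.8 and 34.8 CPM with DMSO, at 33.3, 26.6 and 31.6 CPM with Ento, at 27.0, 23.7 and 27.4 CPM with AZD and at 21.6, 23.6 and 23.0 CPM with Ento+AZD. All 9 exposed libraries lay below all DMSO libraries for FADS1, a desaturase of polyunsaturated chains. FADS1 fell 1.39-fold with AZD (−0.48 ± 0.093, adjusted p = 0.00335) and 1.59-fold with Ento+AZD (−0.67 ± 0.094, adjusted p = 9.85e-05), and with Ento it changed by −0.25 ± 0.092 (adjusted p = 0.107). Both calls were kept in all 12 fits that left out 1 library and in the fit without the replicate block. FADS2, the desaturase that acts before it, fell with AZD (−0.37 ± 0.11, adjusted p = 0.0287), a call lost without DMSO replicate 3 or AZD replicates 2 or 3 (adjusted p up to 0.162), and with Ento+AZD (−0.58 ± 0.11, adjusted p = 0.00103), a call kept in all 12 fits that left out 1 library. FADS1 (chr11:61799627-61829318, minus strand, GRCh38) and FADS2 (chr11:61792980-61867354, plus strand) have exons that overlap each other, and exons of FADS2 overlap FEN1 on the same strand. FEN1, a nuclease of DNA replication, changed by −0.26 ± 0.18 with AZD (adjusted p = 0.304) and fell by 0.88 ± 0.18 with Ento+AZD (adjusted p = 0.00154). As for ACAT2, reads in the overlaps cannot be told apart.

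**Figure D4:**
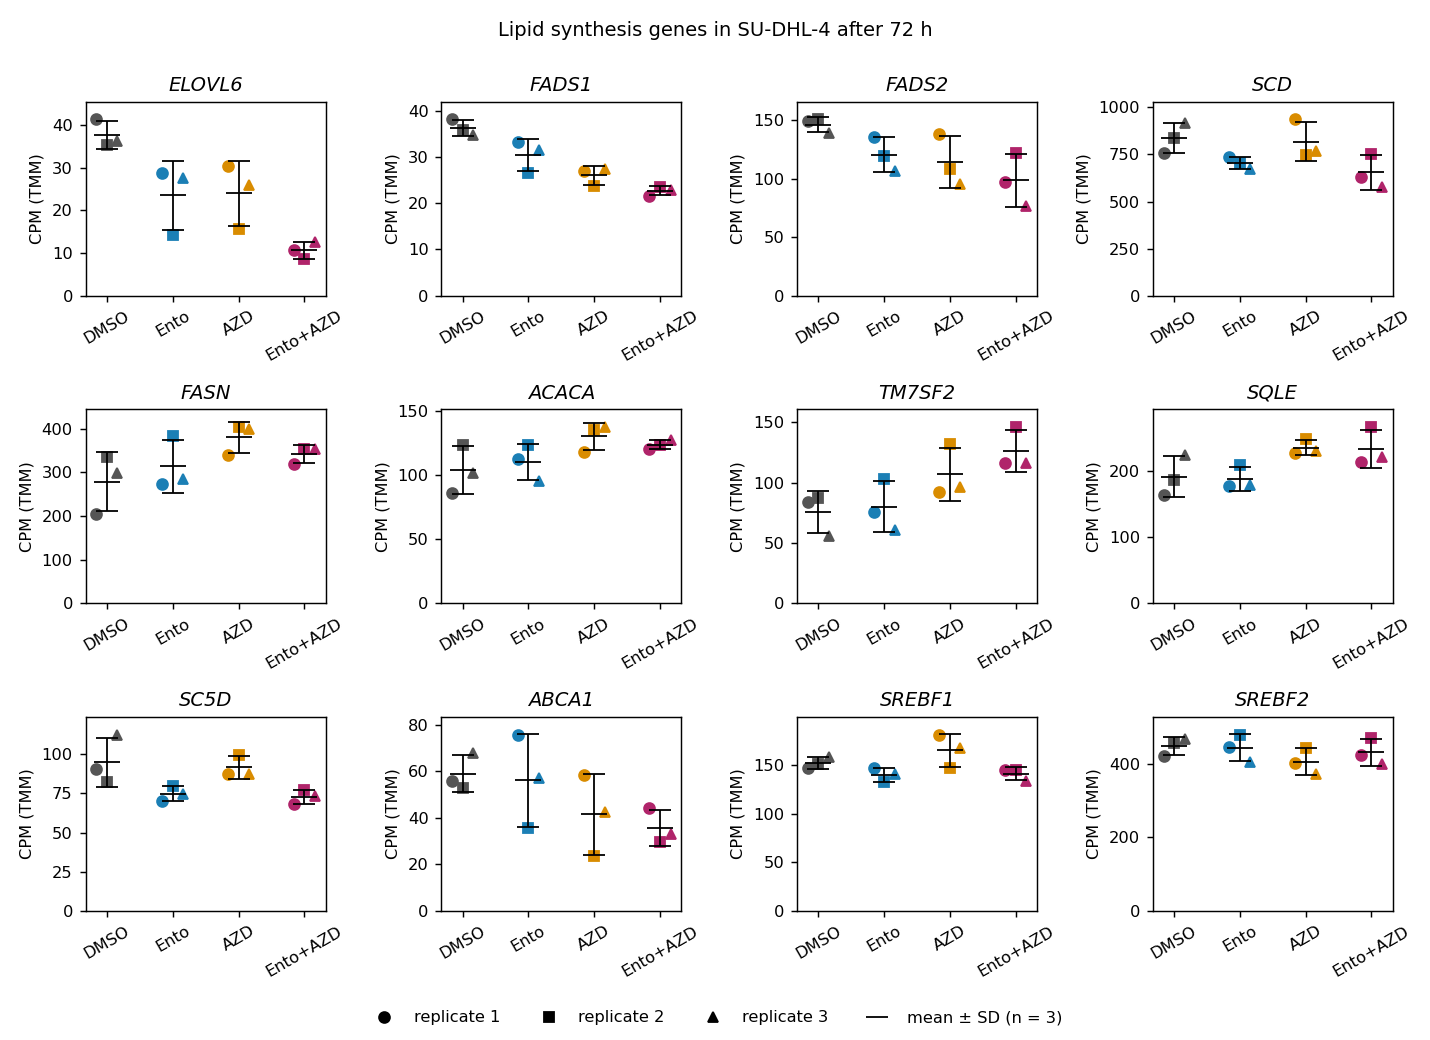
CPM of 12 of the genes in each library by group, with circles, squares and triangles for replicates 1, 2 and 3, and the mean ± SD of 3 libraries in black, on axes that start at 0. ELOVL6 and FADS1 are lower in all exposed libraries than in all DMSO libraries, TM7SF2 is higher in all AZD and Ento+AZD libraries, and the SREBF2 libraries of all groups overlap.

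ELOVL6 (chr4:110045846-110199199, minus strand, GRCh38) showed the largest change of the 34 genes. Its exons overlap an antisense non-coding gene that has an identifier but no symbol (ENSG00000288913). ELOVL6 was at 41.3, 35.2 and 36.3 CPM with DMSO, at 28.6, 14.1 and 27.6 CPM with Ento, at 30.3, 15.6 and 25.9 CPM with AZD and at 10.7, 8.62 and 12.5 CPM with Ento+AZD. All 9 exposed libraries lay below all DMSO libraries, and all Ento+AZD libraries lay below all single-agent libraries. It fell 1.66-fold with Ento (−0.73 ± 0.15, adjusted p = 0.00882), 1.62-fold with AZD (−0.70 ± 0.15, adjusted p = 0.00552) and 3.59-fold with Ento+AZD (−1.85 ± 0.16, adjusted p = 4.92e-06). The AZD and Ento+AZD calls were kept in all 12 fits that left out 1 library, and the Ento call was lost without Ento replicate 2 (adjusted p up to 0.0706). Replicate 2 was the lowest library of ELOVL6 in all 4 groups, as it was for the summed proliferation genes. Without the 4 libraries numbered 2, the changes were −0.47 ± 0.12 (adjusted p = 0.0523) with Ento, −0.47 ± 0.12 (adjusted p = 0.0223) with AZD and −1.75 ± 0.13 (adjusted p = 3.03e-05) with Ento+AZD. The lowest library for ELOVL6 within each group was thus also the one with the lowest summed proliferation genes, and their part in the result was not tested. In the fit without the replicate block only the Ento+AZD call stayed (adjusted p = 0.00342, against 0.365 with Ento and 0.203 with AZD).

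**Figure D5:**
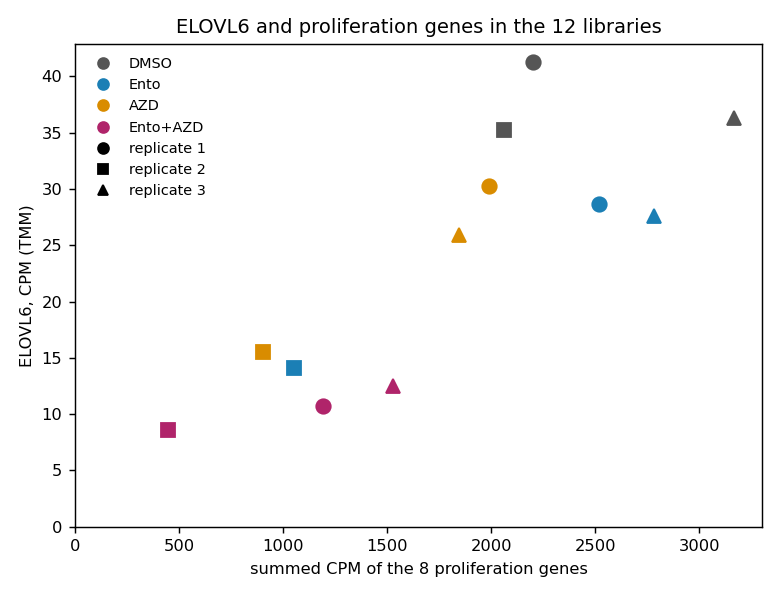
CPM of ELOVL6 against the summed CPM of the 8 proliferation genes in the 12 libraries, with colours for the groups and shapes for the replicates, both axes from 0. The Ento+AZD libraries have the lowest ELOVL6 values (8.62 to 12.5 CPM), and the Ento and AZD libraries numbered 2 lie at 14.1 and 15.6 CPM beside low proliferation values of 1053 and 905 CPM.

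Against the single agents, Ento+AZD lay lower for ELOVL6, by −1.11 ± 0.16 (adjusted p = 0.000617) against Ento and −1.15 ± 0.16 (adjusted p = 0.00113) against AZD, and both calls were kept in all 12 fits that left out 1 library. Of the 34 genes, 7 were called against Ento (20.6%, 3 higher and 4 lower, beside 20.4% of all genes) and 3 against AZD (8.82%, all lower, beside 11.9%, or 6.04% called lower). The share against Ento was near that of all genes. Against AZD both the share called in either direction and the share called lower rested on 3 genes. They are a description and do not set the list apart from all genes. There 27 of the 34 genes lay below 0 and 7 above, with a median of −0.155, against −0.002 for all genes. Against Ento 15 lay below 0 and 19 above. Higher than with Ento were TM7SF2 (0.68 ± 0.11, adjusted p = 0.000962), LSS (0.37 ± 0.12, adjusted p = 0.0402) and SQLE (0.31 ± 0.095, adjusted p = 0.0337), and lower were ABCA1 (−0.62 ± 0.17, adjusted p = 0.0207), FADS1 (−0.42 ± 0.095, adjusted p = 0.00716) and ACAT2 (−0.28 ± 0.094, adjusted p = 0.0448). Lower than with AZD were SC5D (−0.33 ± 0.10, adjusted p = 0.0457) and IDI1 (−0.26 ± 0.079, adjusted p = 0.046). Of these calls that of TM7SF2 was kept in all 12 fits that left out 1 library, and that of FADS1 was lost without Ento replicate 1 or Ento+AZD replicate 1 (adjusted p up to 0.0643). The call of ABCA1 was lost without Ento replicates 1 or 3 or Ento+AZD replicates 1 or 3 (adjusted p up to 0.123) and that of LSS was lost without Ento replicates 1 or 3 or Ento+AZD replicates 1 or 2 (adjusted p up to 0.194). For SQLE it was lost without Ento replicates 1, 2 or 3, AZD replicate 2 or Ento+AZD replicates 1 or 2 (adjusted p up to 0.182). For ACAT2 it was kept only in the fits without DMSO replicates 1, 2 or 3 or AZD replicate 1 (adjusted p up to 0.243 in the others). Against AZD, the call of SC5D was kept only in the fits without DMSO replicates 1, 2 or 3 or AZD replicate 3 (adjusted p up to 0.202 in the others), and that of IDI1 was kept only in the fits without DMSO replicates 1, 2 or 3 or Ento+AZD replicate 2 (adjusted p up to 0.196 in the others). The number of members called against Ento was 2 without Ento replicate 1 or Ento+AZD replicate 1, and 3 without Ento replicate 3, and that against AZD was 1 without Ento replicates 1, 2 or 3, AZD replicates 1 or 2 or Ento+AZD replicates 1 or 3, and 5 without DMSO replicates 1 or 3, and 6 without Ento+AZD replicate 2. Without the replicate block 0 of the 34 genes were called in either comparison.

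Between the single agents, 5 genes differed and all 5 were lower with Ento than with AZD (14.7% of 34, beside 14.7% of all genes and 5.73% called lower). They were LSS (−0.48 ± 0.12, adjusted p = 0.014), TM7SF2 (−0.44 ± 0.11, adjusted p = 0.015), SQLE (−0.32 ± 0.095, adjusted p = 0.0351), ACLY (−0.30 ± 0.077, adjusted p = 0.0196) and IDI1 (−0.29 ± 0.079, adjusted p = 0.0218), of which 3 belong to the sterol arm. The share called in either direction was that of all genes, while the share called lower was above that of all genes. In this comparison 26 of the 34 genes lay below 0 and 8 above. Their median was −0.20, against 0.006 for all genes, and 16 had an unadjusted p under 0.05, beside 29.1% of all genes. The number of members called was 0 without Ento replicates 1 or 3, and 1 without AZD replicate 2, and 2 without AZD replicates 1 or 3, and 3 without Ento replicate 2, and 8 without DMSO replicate 1 or Ento+AZD replicate 2, and 9 without DMSO replicate 2, and 11 without DMSO replicate 3, and 0 without the replicate block. The call of LSS was lost without Ento replicates 1 or 3 or AZD replicate 1 (adjusted p up to 0.088). That of TM7SF2 was lost without Ento replicates 1 or 3 or AZD replicates 2 or 3 (adjusted p up to 0.101). For SQLE it was lost without Ento replicates 1, 2 or 3 or AZD replicates 1, 2 or 3 (adjusted p up to 0.176). For ACLY it was lost without Ento replicates 1 or 3 or AZD replicates 1, 2 or 3 (adjusted p up to 0.124). That of IDI1 was lost without Ento replicates 1, 2 or 3 or AZD replicates 1 or 2 (adjusted p up to 0.114). For ELOVL6 the single agents did not differ beyond the spread of the libraries, with a difference of −0.04 ± 0.15 (95% interval −0.33 to 0.26, adjusted p = 0.909).

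The interaction asks whether the combination departs from the sum of the log2 changes of its parts. By edgeR 0 of the 34 genes and 0 of all genes were called, with 1 of the 34 and 1652 of 16835 genes (9.81%) at an unadjusted p under 0.05, and DESeq2 called 0 and 8. For ELOVL6 the single-agent changes summed to −1.43, against −1.85 measured with both, and the difference of −0.41 ± 0.22 had a 95% interval of −0.84 to 0.02 (adjusted p = 0.552). Without the 4 libraries numbered 2 this difference for ELOVL6 was −0.81 ± 0.18 (adjusted p = 0.14), so its size depended on those libraries. For FASN the difference was −0.33 ± 0.15 (−0.62 to −0.04, adjusted p = 0.497), and −0.29 ± 0.16 (adjusted p = 0.535) without them.

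Of 17 tested genes of sterol processing, isoprenoids and sterol sensing, 1 was called with Ento (higher), 1 with AZD (lower) and 6 with Ento+AZD (2 higher and 4 lower), which is 5.88%, 5.88% and 35.3% of the list beside 8.32%, 22.2% and 40.0% of all genes, and none was over 2-fold. Of 25 tested genes of fatty acid elongation, activation, glyceride synthesis and oxidation, 2 were called with Ento (1 higher and 1 lower), 7 with AZD (5 higher and 2 lower) and 7 with Ento+AZD (3 higher and 4 lower), which is 8%, 28% and 28% of the list beside the same shares of all genes. Of these shares only that with AZD in the fatty acid list lay above the share of all genes. CPT1A, the gate of fatty acid entry into mitochondria for oxidation, was the only gene of these lists called over 2-fold. It was at 18.5, 17.8 and 25.1 CPM with DMSO, at 17.4, 16.8 and 21.7 CPM with Ento, at 9.31, 9.25 and 8.47 CPM with AZD and at 8.36, 8.77 and 10.8 CPM with Ento+AZD. The AZD and Ento+AZD libraries lay below all others. CPT1A fell by 1.16 ± 0.12 on the log2 scale with AZD (adjusted p = 0.000111) and by 1.13 ± 0.12 with Ento+AZD (adjusted p = 1.64e-05), both in all 12 fits that left out 1 library, and changed by −0.13 ± 0.11 with Ento (adjusted p = 0.522). It was higher with Ento than with AZD by 1.03 ± 0.12 (adjusted p = 7.11e-05), a difference also called in all 12.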

How the data were processed

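The members and gene lists were chosen with earlier results of these data known. According to the paper's methods, the authors trimmed the single reads (CutAdapt, run by TrimGalore), mapped them to GRCh38 and obtained gene counts by Rsubread. The deposited table holds these raw counts for each gene symbol. The strand setting and the annotation release of the counting are not given in the sources used here. A deposited table of normalized log2 values was not used.

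Counts were analysed with edgeR 4.0.16 in R 4.3.3. The filter was filterByExpr by group (minimum count 10, minimum total 15), and normalization was by TMM. As in the study, all 12 libraries entered 1 model without intercept, and quasi-likelihood F-tests were adjusted by Benjamini-Hochberg over all genes. The terms here were the treatment group and the replicate number. The study used a term for batch beside treatment and does not say that its batch is the replicate number. The replicate number was taken for it here. SE is the absolute log2 fold change over the square root of F, and 95% intervals span 1.96 SE on either side. This is a normal approximation, so the intervals are somewhat narrower than the F-test would give. Groups and numbers came from the sample labels. The numbers were taken to pair the libraries, since the deviations from the group means correlated at 0.213 to 0.703 in all 18 pairs of libraries with the same number (median 0.435), against −0.627 to 0.325 in 36 pairs with different numbers, and since the study fitted a batch term. Libraries of 1 group differed by more than sampling noise (chi-square per degree of freedom 9.06 to 54.1), so that each was counted once. DESeq2 1.42.0, other scalings and filters, the fit without the block, fits of only the groups compared and the removal of single libraries were alternatives, and the removal of the libraries numbered 2 was added after the data were seen. The tests were tried on simulated counts. Values in every library are given for SREBF1, SREBF2, INSIG1, HMGCS1, SQLE, FASN, SCD, ABCA1 and ABCG1, for up to 3 members with the largest increase and 3 with the largest decrease among those called in each comparison, and for genes of other lists called over 2-fold. Coordinates and lengths are those of GENCODE on GRCh38.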

Additional observations from a re-analysis of the deposited data

How the results depend on the processing

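No value of a member turned its direction past the threshold under any alternative run. Without the replicate block, genes called numbered 36 with Ento, 326 with AZD and 2398 with Ento+AZD against DMSO, 206 for Ento+AZD against Ento, 17 for Ento+AZD against AZD and 539 for Ento against AZD, and members called numbered 0, 1, 7, 0, 0 and 0. With no filter on low counts, 2294 genes and 10 members were called with Ento, 6 members for Ento+AZD against AZD, 13 members for Ento against AZD and 278 genes for the interaction. Fits of only the groups compared called 2343 genes with AZD, 10 members with Ento+AZD against DMSO, 5 members for Ento+AZD against AZD, and 3907 genes and 16 members for Ento against AZD. Scaling by library size alone, and a minimum of 10 counts in all libraries, each called 1 member for Ento+AZD against AZD. DESeq2 called 8 genes for the interaction. Without the 4 libraries numbered 2 (chosen after seeing the data), 608 genes were called with Ento, 5 members with AZD, 1079 genes and 6 members for Ento+AZD against AZD and 10 genes for the interaction. The members called with Ento in that fit were INSIG1, MSMO1 and SC5D, while ELOVL6 and NSDHL were not called. The fits of only the groups compared and those without libraries hold fewer samples, and the cause of the other differences was not tested. The counts of members under these settings stand without the share of all genes called under the same setting. They therefore do not compare the list with all genes.

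Leaving out 1 library at a time, genes called ranged from 427 to 1681 with Ento, 1253 to 4112 with AZD, 4879 to 6765 with Ento+AZD, 1402 to 4083 for Ento+AZD against Ento, 595 to 2613 for Ento+AZD against AZD, 1152 to 3028 for Ento against AZD and 0 to 213 for the interaction. Members called ranged over 0 to 6, 4 to 9, 10 to 19, 2 to 8, 1 to 6, 0 to 11 and 0 in the same order. Of 528 values of the 44 called member results, 388 kept the call and 140 lost it, and in the other alternatives 273 of 352 kept it and 79 lost it. With 3 libraries a group, the smallest member change called was that of IDI1 (−0.21, Ento+AZD against DMSO), while ACSS2, at 0.855 to 3.85 CPM, was not called at −0.71 with Ento.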
